A study of Mus musculus with 3 samples.

Results

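The CXC chemokine genes Cxcl1, Cxcl2, Cxcl3, Cxcl5, Cxcl9, Cxcl10, Cxcl12, Cxcl14 and Cxcl16 were taken by mouse symbol from the deposited tables. These 9 genes are a small part of the 23877 genes that the count table and the FPKM table hold between them. Of the 9, 6 were in the table of raw counts, and Cxcl5, Cxcl12 and Cxcl14 were in the table of FPKM values alone (fragments per kilobase, adjusted for gene length and depth). All 6 in the count table passed the filter of at least 1 CPM (counts scaled to a library of 1e6) in at least 1 library, as did 13019 of its 19723 genes.

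The study sequenced RNA from myeloid cells sorted from BALB/c mice, all female and 6 to 8 weeks of age, in 3 libraries, 1 for each group. A pool of 20 tumours from mice treated with alisertib, which blocks the mitotic kinase Aurora A, gave the alisertib MDSC library, and a pool of 20 tumours from control animals gave the control MDSC library. MDSCs, or myeloid-derived suppressor cells, are immature cells of the myeloid lineage known for restraining T cells. The marrow of 5 wild-type BALB/c mice gave the library of bone marrow neutrophils. In the labels, the control animals appear as untreated in one place and as control treated in another, and no tumour line, dose or sort markers are named, so it is not known whether they received a vehicle. Because each group is 1 pooled library, no spread between animals was measured and no p-value was computed. The comparison of the tumour pools addresses alisertib, but treatment cannot be told apart from other differences between the pools, their sorts and their libraries. The comparison of tumour with marrow combines site, tumour and maturation, which cannot be told apart.

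CXC chemokines are small secreted proteins that guide leukocytes through G protein-coupled receptors, and their first conserved cysteines are separated by a single residue. Members with the motif glutamate, leucine and arginine (ELR) just before that pair act mainly through Cxcr2 and attract neutrophils, while Cxcl9 and Cxcl10 lack it, are induced by interferons and attract T cells and NK cells through Cxcr3. Cxcl12 acts through Cxcr4 and keeps neutrophils in the bone marrow, Cxcl16 is a membrane-anchored ligand of Cxcr6, and Cxcl14 is best known from epithelia.

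The stretches of coding sequence around the CXC codons are shown because they divide the genes into the ELR group and the rest. Each runs 5′ to 3′ on the coding strand, and the capitals mark the 3 codons just before the codon of the first CXC cysteine. Of the 9 genes, 4 had ELR codons there and 5 did not. They were read from GENCODE M21 transcripts on GRCm38, and each lies in coding exon sequence.
Cxcl1: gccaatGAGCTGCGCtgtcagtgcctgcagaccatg
Cxcl2: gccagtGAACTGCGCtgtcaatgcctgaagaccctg
Cxcl3: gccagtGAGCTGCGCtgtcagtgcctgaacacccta
Cxcl5: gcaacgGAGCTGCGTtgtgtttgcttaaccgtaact
Cxcl9: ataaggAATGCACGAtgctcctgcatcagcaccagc
Cxcl10: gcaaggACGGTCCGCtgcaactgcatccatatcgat
Cxcl12: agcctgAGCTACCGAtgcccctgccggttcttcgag
Cxcl14: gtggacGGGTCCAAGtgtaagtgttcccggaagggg
Cxcl16: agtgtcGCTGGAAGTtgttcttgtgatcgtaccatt

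The stretch of Cxcl1 lies at chr5:90891481-90891516, that of Cxcl2 at chr5:90904127-90904162, that of Cxcl3 at chr5:90786353-90786388 and that of Cxcl5 at chr5:90759712-90759747, all in exon 2 on the plus strand. The stretch of Cxcl9 (chr5:92326830-92326865) and that of Cxcl10 (chr5:92348169-92348204) are in exon 2 on the minus strand. The stretch of Cxcl12 is in exon 2 at chr6:117171493-117171528 on the plus strand, and that of Cxcl16 in exon 2 at chr11:70459115-70459150 on the minus strand. In Cxcl14 it crosses from exon 1 into exon 2, between chr13:56295903 and chr13:56296116 on the minus strand. Within the ELR group the sequences are close: the coding sequences of Cxcl2 and Cxcl3 were identical at 89.7% of 300 aligned bases and their transcripts share a run of 110 identical bases. Cxcl1 and Cxcl2 were identical at 78.8% of 288 aligned bases, with a longest shared run of 23 bases, and Cxcl1 and Cxcl3 at 75.7%. Reads could therefore be split or lost between Cxcl2 and Cxcl3, depending on how the authors counted reads that map to both, which is not given in the sources used here.

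The libraries held 19373087 counts (alisertib), 21959748 counts (control) and 21987097 counts (bone marrow). All 10 neutrophil markers of the list were detected in every library, but their summed level was 13377 CPM in the alisertib library, 32755 CPM in the control library and 98341 CPM in bone marrow. Most of the marrow sum came from S100a9 (30389 CPM), Ngp (21372), Ltf (17724) and S100a8 (15223). Csf3r differed little, at 1725, 2226 and 2368 CPM. Of the 10, 6 were called lower than marrow in the control and 8 with alisertib, against 22.9% and 22.3% of all genes. Monocyte and macrophage markers (12 listed) summed to 789, 657 and 570 CPM. Of the markers of other cell types, B cell markers (6) summed to 40.1, 5.43 and 203 CPM, T and NK cell markers (10) to 36.2, 15.8 and 145 CPM, dendritic cell markers (8) to 23.3, 6.50 and 13.1 CPM, and endothelial markers (4 of 6 in the count table) to 15.6, 6.35 and 0.694 CPM. Single genes carried some of these sums: Cd3d alone gave 136 CPM of the T and NK cell sum in marrow, and without it the sums were 7.06 CPM in the control and 8.93 CPM in marrow, both below that of the alisertib library. Without Vwf the endothelial sums were 0.578, 0.768 and 0.217 CPM. Epithelial markers (3 of 6 in the count table) summed to 17.6, 16.3 and 5.68 CPM, platelet markers (5) to 9.83, 8.24 and 14.7 CPM, and fibroblast markers (3 of 9 in the count table) to 1.30, 1.48 and 0.824 CPM. Klrb1c was at 0 in both tumour libraries, as was Siglech. Cd209a and Ncr1 were at 0 in the alisertib library, Tek and Treml1 in the control library, and Epcam, Trac, Kdr and Gp6 in bone marrow. The part of these cell types in the chemokine values below was not tested, and fewer cells of a type and less RNA per cell cannot be told apart in such pools.

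Cxcl2 was by far the most abundant member in every library. This ELR ligand of Cxcr2, which activated myeloid cells make, had 292826 counts in the alisertib library, 242230 in the control library and 7181 in bone marrow. By count it ranked 2 among all genes with alisertib and 3 in the control, against 574 in bone marrow. It alone took 1.51%, 1.10% and 0.0327% of all counts in the same order.

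Cxcl3, a close ELR relative of Cxcl2, had 50690, 47592 and 99 counts in the libraries of alisertib MDSCs, control MDSCs and bone marrow. It ranked 28 and 45 by count in the tumour libraries and 8548 in bone marrow. Its counts equalled 17.3%, 19.6% and 1.38% of those of Cxcl2. The part of reads shared with Cxcl2 in the Cxcl3 counts was not tested.

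Cxcl1, the other ELR member in the count table and also a ligand of Cxcr2, had 2123, 1648 and 46 counts. Both tumour libraries were high and bone marrow low for all 3 of these genes. Cxcl5, an ELR ligand made mostly by epithelial cells and platelets, was far lower, at 0.452, 0.241 and 0.0460 FPKM. Multiplying FPKM by gene length and the implied library size gives whole reads for 89.1% of the genes that are in the FPKM table alone. For Cxcl5 it gives 18, 9 and 2 reads.

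Among the members without ELR, Cxcl10 had 227, 90 and 18 counts and Cxcl9, which shares its receptor, 28, 12 and 5 counts. Both were highest in the alisertib library and lowest in bone marrow. Cxcl16, which also acts as a scavenger receptor on its membrane stalk, had 384, 351 and 10 counts. Cxcl14 was listed at 3.49 and 4.95 FPKM in the alisertib and control libraries and at 0 in bone marrow. Cxcl12 had the reverse order, at 0.0114 and 0.0122 FPKM in the tumour libraries and 0.0682 FPKM in bone marrow, but these correspond to only 2, 2 and 13 implied reads.

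**Figure D1:**
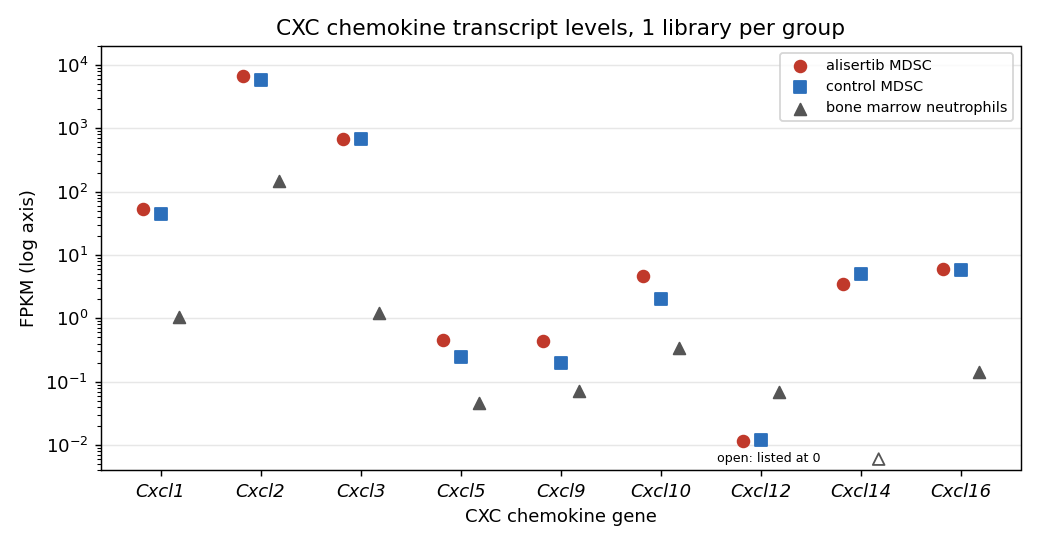
Deposited FPKM of the 9 CXC chemokine genes (x axis) on a log y axis, with 1 point for each library (circles alisertib MDSC, squares control MDSC, triangles bone marrow neutrophils). Cxcl2 stands highest in each library (6625, 5841 and 149 FPKM), and the open triangle marks Cxcl14, listed at 0 in bone marrow and drawn at the foot of the axis.

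Per length, on the FPKM scale, the order in both tumour libraries began with Cxcl2, Cxcl3, Cxcl1 and Cxcl16 and ended with Cxcl5, Cxcl9 and Cxcl12. Cxcl2 stood at 6625 FPKM with alisertib and 5841 FPKM in the control, and Cxcl3 at 678 FPKM in both. Cxcl1 was at 53.0 and 43.8 FPKM, and Cxcl16 at 5.95 and 5.79 FPKM. The middle of the order differed: Cxcl10 was above Cxcl14 with alisertib (4.72 against 3.49 FPKM) and below it in the control (1.99 against 4.95 FPKM). Counting error alone did not separate Cxcl5 from Cxcl9 in either tumour library, where their ratios per length were 1.04 (95% interval 0.542 to 1.95) and 1.21 (0.452 to 3.14). In the control it did not separate Cxcl16 from Cxcl14 either (1.17, 0.977 to 1.41).

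In bone marrow neutrophils Cxcl2 led at 149 FPKM, followed by Cxcl3 at 1.21 and Cxcl1 at 1.05 FPKM. These last values did not differ beyond counting error (ratio 1.15, 0.805 to 1.67). Cxcl10 (0.343 FPKM) came above Cxcl16 (0.142 FPKM), the reverse of both tumour libraries, with a ratio of 2.41 (1.06 to 5.86). Below Cxcl16, adjacent genes (Cxcl9, Cxcl12 and Cxcl5) did not differ beyond counting error.

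As a share of the summed FPKM of the 9 genes, Cxcl2 made up 89.9% with alisertib, 88.8% in the control and 98.1% in bone marrow. Cxcl3 made up 9.20% and 10.3% in the tumour libraries and 0.799% in bone marrow, so the main difference in make-up between tumour and marrow lay in Cxcl3. Cxcl1 held a similar share throughout, at 0.719%, 0.666% and 0.693%. These shares depend on length, because the annotated exons of Cxcl1, Cxcl2, Cxcl3 and Cxcl10, retained introns included, cover the whole gene: for Cxcl3 the length is 3498 bases against 1016 in the spliced transcript. Per length of the spliced transcript, Cxcl2 made up 83.4%, 81.7% and 97.5%, and Cxcl3 15.8%, 17.5% and 1.47%. For these 4 genes, reads from introns and from spliced RNA cannot be told apart in the tables.

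**Figure D2:**
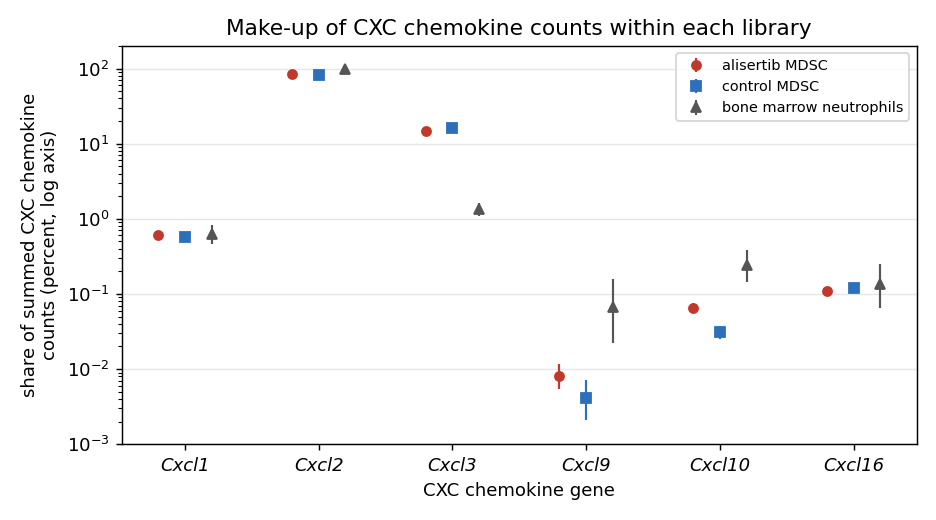
Share of the summed counts of the 6 CXC chemokine genes in the count table (percent, log y axis) taken by each gene (x axis), by library, with exact binomial 95% intervals that cover counting error only. Cxcl3 takes 14.6% and 16.3% in the tumour libraries (circles and squares) and 1.35% in bone marrow (triangles), while Cxcl1 stays between 0.565% and 0.625%.

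Ratios of counts within a library do not depend on how libraries are scaled. There were 5.78 and 5.09 Cxcl2 counts for each Cxcl3 count in the alisertib and control libraries and 72.5 in bone marrow. The control ratio was thus 0.0702 times the marrow ratio (95% counting interval 0.0575 to 0.0856). By contrast, Cxcl2 over Cxcl16 was 763, 690 and 718, and control over marrow gave 0.961 (0.512 to 1.8). Cxcl1 over Cxcl2 was 0.00725, 0.00680 and 0.00641, with 1.06 (0.792 to 1.42) for control over marrow. The proportions of Cxcl1, Cxcl2 and Cxcl16 to one another were thus not separable between tumour and marrow at these wide counting intervals, while that of Cxcl3 was. Cxcl9 and Cxcl10 departed in the other direction. For control over marrow, Cxcl2 over Cxcl10 gave 6.75 (4.06 to 11.2) and Cxcl2 over Cxcl9 gave 14.1 (4.95 to 39.9).

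Control MDSCs set against bone marrow neutrophils had ratios above 1 for all 6 genes of the count table. A gene was called when the bound of the exact 95% interval nearest to 1 was at least 2-fold. By that rule 5 of the 6 were called higher and none lower, against 18.3% of all 13019 genes called higher. Cxcl9, Cxcl10 and Cxcl16 were at 0.217, 0.780 and 0.433 CPM in marrow and passed the filter only through tumour libraries. They could thus hardly be called lower, and Cxcl12, with more implied reads in marrow, is not among the 6. The median log2 ratio of the 6 was 5.31, and that of all genes -0.14.

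Cxcl3 had 47592 counts against 99, a ratio of 565 (466 to 699). Cxcl1 had a ratio of 41.9 (31.6 to 58.0), Cxcl2 of 39.8 (38.9 to 40.8) and Cxcl16 of 39.5 (22.3 to 87.2). Among these 4 genes the ratio of Cxcl3 stood apart, and the intervals of the other 3 overlapped. Cxcl10, with 90 counts against 18, had a ratio of 5.78 (3.53 to 10.4). Cxcl9, with 12 against 5, had a ratio of 2.68 (0.929 to 10.3) and was not called, since this depth could not separate the libraries. From the implied reads, Cxcl5 had a ratio of 4.49 (1.10 to 50.5), and Cxcl12 was 4.57-fold lower in the control MDSCs (1.25 to 50.2). Cxcl14 had about 181 implied reads in the control and was listed at 0 in marrow, so it was higher in the control, and no fold is given because its reads are not whole.

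Alisertib MDSCs compared with the same bone marrow library gave 6 of 6 called higher, against 18.7% of all genes called higher. The limit of the filter given above holds here too: Cxcl9 passed it only through the alisertib library (1.35 CPM, against 0.614 CPM in the control). The marrow library is shared with the comparison above, so these values are set side by side and are not independent. The ratios were 566 (467 to 700) for Cxcl3, 50.8 (38.3 to 70.3) for Cxcl1, 45.3 (44.3 to 46.4) for Cxcl2 and 40.7 (23.0 to 89.7) for Cxcl16. Cxcl10 had a ratio of 13.7 (8.67 to 24.1). Cxcl9, with 28 counts against 5, had a ratio of 5.76 (2.37 to 20.6) and was called here. The median log2 ratio of the 6 was 5.42, and that of all genes -0.09. Cxcl5 had a ratio of 8.22 (2.39 to 88.9) from 18 against 2 implied reads. Cxcl12 was 4.86-fold lower with alisertib (1.32 to 53.4), from 2 against 13 reads. Cxcl14, with about 136 implied reads against a value listed at 0, was again higher than in marrow.

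The tumour libraries were close to each other. None of the 6 genes was called between alisertib and control MDSCs, against 2.98% of all genes called in either direction. With so low a share over all genes, the lack of calls does not set these genes apart. The median log2 ratio of the 6 was 0.23, and that of all genes 0.0. Of the genes called over the whole table, 60.3% were higher with alisertib, and 84.0% when total counts replaced TMM factors, a change of scale that adds 0.27 to every log2 ratio of alisertib to control.

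The highest ratios were those of the interferon-inducible pair. Cxcl10 had 227 counts with alisertib and 90 in the control, a ratio of 2.37 (1.85 to 3.06). Its lower bound is under 2-fold, and scaling by total counts would bring it past that line. Cxcl9 had 28 and 12 counts, a ratio of 2.15 (1.08 to 4.74). Cxcl11, a further ligand of Cxcr3 that is not among the 9 genes, had 51 and 21 counts, a ratio of 2.25 (1.35 to 4.0). The 3 Cxcr3 ligands thus had similar ratios, all with intervals above 1, and none was called. Cxcl9 passed the filter only through the alisertib library (1.35 CPM, against 0.614 CPM in the control). Cxcl11 was named after its values were seen, so the likeness of the 3 is only a description. Relative to Cxcl16 in the same library, which needs no scaling, Cxcl10 was at 0.591 with alisertib and 0.256 in the control, a ratio of 2.31 (1.74 to 3.06). Relative to Cxcl2, the change was of like size: Cxcl2 over Cxcl10 was 1290 with alisertib and 2691 in the control, a ratio of 0.479 (0.375 to 0.612). Some markers of other cell types were also higher with alisertib than in the control, while some of the same lists went the other way. By the same rule, 5 of the 8 T and NK cell markers past the filter and 5 of 6 B cell markers were called higher. Cd3e, Trac and Trbc1 passed the filter only through the alisertib library (0.870, 0.666 and 0.512 CPM in the control). They could thus hardly be called lower. In the same T and NK cell list, Cd3d had a ratio of 0.715 (0.564 to 0.903) and Nkg7 of 0.681 (0.267 to 1.63). Also called higher were 1 of 6 dendritic cell markers (Ccr7, 6.43, 4.77 to 9.01) and the endothelial gene Vwf (2.68, 2.15 to 3.37). Of these 6 dendritic cell markers, 3 had ratios above 1, and Flt3 was at 0.762 (0.258 to 2.12). Without Vwf the endothelial sum was 0.578 CPM with alisertib and 0.768 CPM in the control. Over all genes the share called higher was 1.8%. No epithelial, platelet or fibroblast marker past the filter was called. None of the 11 macrophage and monocyte markers past the filter was called, and among them Ms4a7 had a ratio of 2.82 (1.48 to 6.11), Mrc1 1.88 (1.54 to 2.32), C1qc 1.55 and C1qa 1.48, while Ccr2 was at 0.630 and Ly6c2 at 0.714. Their part in the Cxcl9 and Cxcl10 values was not tested.

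The ELR members differed less. Cxcl1 had a ratio of alisertib to control of 1.21 (1.14 to 1.29) and Cxcl2 of 1.14 (1.13 to 1.14). Cxcl3 was at 1.0 (0.990 to 1.01) and Cxcl16 at 1.03 (0.888 to 1.19). The direction of these last genes depends on the scale, since DESeq2 size factors gave log2 ratios of -0.05 for Cxcl3 and -0.01 for Cxcl16, and total counts 0.27 and 0.31. Free of scale, Cxcl2 over Cxcl3 was 1.13 times as high with alisertib as in the control (1.12 to 1.15), and Cxcl1 over Cxcl3 1.21 times (1.13 to 1.29). Cxcl5 had a ratio of 1.83 (0.803 to 4.76) and was not separable at this depth, nor was Cxcl12, with 2 implied reads in each tumour library. Cxcl14 was 1.41-fold lower with alisertib (1.13 to 1.78), from implied reads that are not whole numbers and were rounded to 136 and 181, so that interval is approximate.

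**Figure D3:**
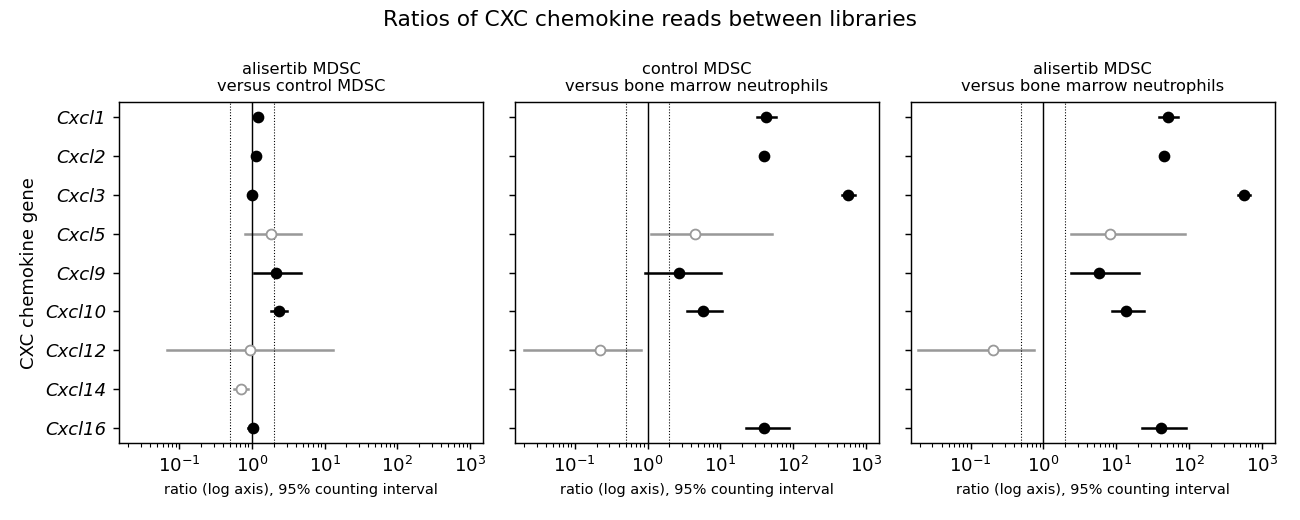
Ratio of scaled reads (log x axis) of each CXC chemokine gene (y axis) in the 3 comparisons of libraries, with exact 95% intervals for counting error; filled points are from counts and open grey points from reads implied by FPKM, and the dotted lines mark 2-fold. Against bone marrow, Cxcl3 lies at 565 and 566 while Cxcl1, Cxcl2 and Cxcl16 lie between 39.5 and 50.8, and Cxcl14 is not drawn because it was listed at 0 in bone marrow.

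Several members lie side by side, and their neighbours show how local the levels are. Along chromosome 5 (GENCODE M21, GRCm38, plus strand) Cxcl5 (90759360 to 90761624) is followed by Ppbp, Pf4, Cxcl3 (90786103 to 90789600), Cxcl15, Cxcl1 (90891241 to 90893115) and Cxcl2 (90903871 to 90905938), and then Mthfd2l. Cxcl9 (92321347 to 92328079) and Cxcl10 (92346638 to 92348889) lie in a second group on the minus strand. Cxcl12 is on chromosome 6 (117168535 to 117181367, plus), Cxcl16 on chromosome 11 (70453983 to 70459984, minus) and Cxcl14 on chromosome 13 (56288643 to 56296551, minus).

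Cxcl15, the chemokine gene between Cxcl3 and Cxcl1, had only 28, 14 and 2 counts (0.616, 0.328 and 0.0403 FPKM). Pf4, the platelet chemokine beside Cxcl3, had 52, 40 and 6 counts (3.37, 2.77 and 0.357 FPKM), and Ppbp, also a platelet chemokine, 11, 11 and 3 counts. High levels were thus limited to Cxcl3, Cxcl1 and Cxcl2 among the chemokine genes of that stretch. Against bone marrow, Pf4 had a ratio of 7.36 (3.32 to 22.7) in the control and 8.98 (4.14 to 27.4) with alisertib and was called in both. Cxcl15 was called with alisertib alone, at 12.7 (3.92 to 135), against 6.85 (1.90 to 74.9) in the control, and the difference between these was not detectable (alisertib to control 1.85, 0.958 to 3.87). Pf4 passed the filter only through the tumour libraries (0.260 CPM in marrow). Cxcl15 passed it only through the alisertib library (1.35 CPM, against 0.717 CPM in the control). Both could thus hardly be called lower than marrow.

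Mthfd2l, a mitochondrial folate enzyme gene next to Cxcl2, had 129, 205 and 46 counts and was called higher than marrow in the control at 5.22 (3.81 to 7.41). Near Cxcl10, the lysosomal membrane gene Scarb2 (7749, 6983 and 944 counts) had a ratio of control to marrow of 8.73 (8.16 to 9.36), and the nuclear pore gene Nup54 2.91 (2.62 to 3.23). Sdad1, a ribosome biogenesis gene next to Cxcl9, had 468, 471 and 202 counts and a ratio of 2.75 (2.33 to 3.26), and Naaa, a lipid amidase gene beyond it, 310, 286 and 341 counts and a ratio of 0.991 (0.843 to 1.16). Around Cxcl16, apart from the gene Zmynd15 that overlaps it, the called neighbours were lower than marrow: Arrb2, an arrestin gene, was 4.94-fold lower in the control (4.77 to 5.12) and Pelp1, a nuclear receptor cofactor gene, 7.13-fold lower (5.16 to 10.3), while Med11, a Mediator subunit gene, was 1.39-fold lower and not called. Genes beside the chemokines thus differed from marrow in both directions.

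**Figure D4:**
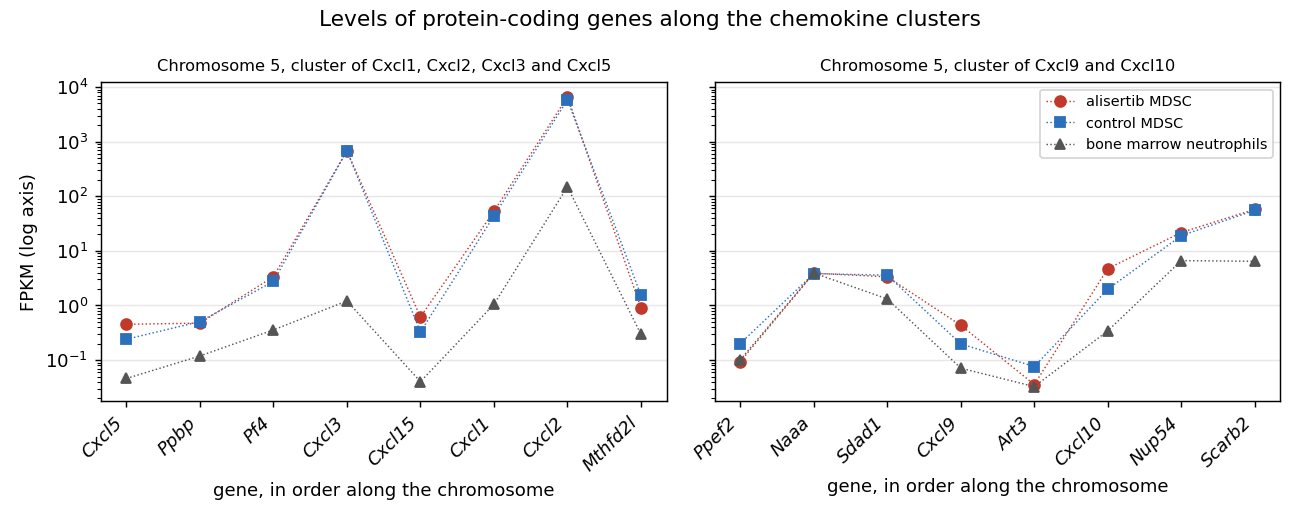
Deposited FPKM (log y axis) of protein-coding genes in their order along the 2 chemokine stretches of chromosome 5 (x axis), by library; the dotted lines only join points of the same library. Cxcl3 and Cxcl2 peak at 678 and 6625 FPKM in the alisertib library, and Cxcl15 between Cxcl3 and Cxcl1 is at 0.616 FPKM.

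Overlapping genes could add reads to a member where strand was not used in counting, which the sources used here do not state. Cxcl10 lies within Art3 on the opposite strand, and Art3 had only 3, 6 and 3 counts. Cxcl16 overlaps Zmynd15 by 552 bases on the opposite strand. Zmynd15 had 61, 33 and 2 counts, and reads of Cxcl16 and Zmynd15 in that stretch cannot be told apart.

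Promoters are shown for the members that were high together and for the interferon-inducible pair. They come from RefSeq on GRCm38.p6, where windows from 250 bases before to 50 after the start were found for 7 of the 9 genes. Each sequence below is a part of that window, upstream of the start and 5′ to 3′ on the gene's own strand. Capitals mark matches to kappaB, the site bound by NF-kappaB, and to an ISRE-like motif, GAAANNGAA, related to the sites of interferon-activated factors. Both strands were searched.
Cxcl1: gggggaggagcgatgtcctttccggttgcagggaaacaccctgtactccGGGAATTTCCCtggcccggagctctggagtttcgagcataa
Cxcl2: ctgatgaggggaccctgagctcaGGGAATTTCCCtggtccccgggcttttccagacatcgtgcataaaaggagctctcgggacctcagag
Cxcl3: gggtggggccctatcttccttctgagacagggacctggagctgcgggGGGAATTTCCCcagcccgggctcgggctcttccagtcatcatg
Cxcl10: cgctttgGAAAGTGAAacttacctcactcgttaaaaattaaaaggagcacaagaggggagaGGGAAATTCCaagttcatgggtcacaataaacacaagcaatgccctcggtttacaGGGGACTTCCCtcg
Cxcl9: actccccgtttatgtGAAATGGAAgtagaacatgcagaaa

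These windows lie at chr5:90891125-90891214 (Cxcl1), chr5:90903779-90903868 (Cxcl2) and chr5:90785981-90786070 (Cxcl3) on the plus strand, and at chr5:92348980-92349109 (Cxcl10) and chr5:92328230-92328269 (Cxcl9) on the minus strand. The same kappaB match, GGGAATTTCC, began 71 bases before the start of Cxcl1, 97 before that of Cxcl2 and 73 before that of Cxcl3. It overlaps a match on the other strand that begins 1 base further on, which is why 11 bases are in capitals. In Cxcl10, kappaB matches began 159, 104 and 103 bases before the start, the last of these overlapping, and the ISRE-like match began 213 before it. In Cxcl9 the ISRE-like match began 175 before the start, and Cxcl14 had one at 172. Over the table, 8.46% of 32851 promoters of 300 bases held a kappaB match and 8.56% an ISRE-like match, against 4 and 3 of the 7 members. TATAAA was in 13.6% of promoters and in 2 of the 7, 30 bases before the start of Cxcl3 and 195 before that of Cxcl9. A match is a description of these letters and does not show that a factor was bound in these cells.

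NF-kappaB is the factor best known for switching on ELR chemokine genes in myeloid cells. Its subunits and regulators were higher in the tumour libraries than in marrow. All 10 on the list were called higher in control MDSCs (median log2 ratio 2.15) and 9 of 10 with alisertib (median 1.87), the exception being Bcl3 at 2.13 (1.95 to 2.32). The shares of all genes called higher than marrow were 18.3% in the control and 18.7% with alisertib. In control MDSCs the ratio was 10.4 (9.99 to 10.8) for Tnfaip3, an inhibitor of the pathway, 9.02 (lower bound 8.14) for the subunit Relb and 7.31 (6.90 to 7.76) for Nfkb2. It was 7.01 (6.83 to 7.19) for the inhibitor Nfkbia and 5.06 (4.95 to 5.18) for Nfkbiz, a nuclear cofactor. Activators and inhibitors were thus high together. Between alisertib and control none of the 10 was called, with a median log2 ratio of -0.31.

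Of the cytokines that induce these chemokines, 4 of 8 passed the filter: Il1a, Il1b and Tnf were called higher in both tumour libraries than in marrow and Il6 lower, and none was called between the tumour libraries. Of all genes, 18.3% in the control and 18.7% with alisertib were called higher than marrow, and 22.9% and 22.3% lower. Between the tumour libraries 2.98% of all genes were called. Il1a had 7306, 8140 and 30 counts (control to marrow 315, 224 to 475), Il1b 36239, 49515 and 11715 (4.99, 4.89 to 5.09) and Tnf 8557, 5982 and 1125 (6.28, 5.89 to 6.70). Il6 had 22, 29 and 212 counts and was 6.10-fold lower in the control MDSCs than in marrow. Of the inducers in the FPKM table alone, Ifnb1 was listed at 0.998, 0.399 and 0 FPKM and Ifng at 0.659, 0.207 and 0.249 FPKM. Both values were highest with alisertib and low throughout. Ifnb1, with 16 against 6 implied reads, had a ratio of alisertib to control of 2.39 (0.933 to 7.83) and was not separable at this depth. The implied reads of Ifng are not whole (18.24, 5.36 and 7.51), so its ratio of 3.17 (1.21 to 11.7) is approximate. Il17a, a T cell cytokine that raises ELR chemokines, had 1, 12 and 0 implied reads, and Csf2 0, 7 and 0.

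Of 13 receptors and adaptors for the inducers, 7 were called higher in control MDSCs than in marrow and 5 with alisertib (median log2 ratios 1.15 and 0.62). Beside these counts, 18.3% and 18.7% of all genes were called higher. Between the tumour libraries none of the 13 was called (median -0.42). Tnfrsf1b, a TNF receptor, led with a ratio of control to marrow of 18.8 (17.9 to 19.6), followed by Il1rap (7.14, 6.68 to 7.64), a shared subunit of IL-1 receptors, and the lipopolysaccharide receptor Tlr4 (6.56, 6.20 to 6.94). The decoy receptor Il1r2 was also higher, at 4.48 (4.38 to 4.59). Ifngr1, a chain of the interferon gamma receptor, was 2.05-fold lower with alisertib than in the control and missed the rule, since its counts of 1924 against 3710 gave a ratio of 0.488 (0.462 to 0.516).

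Interferon-regulated genes and their factors, which bear on Cxcl9 and Cxcl10, were called higher in 5 of 10 cases in control MDSCs and in 6 of 10 with alisertib against marrow (median log2 ratios 1.22 and 1.19). Over all genes the shares called higher were 18.3% and 18.7%. Gbp5, an interferon-induced GTPase, had 1181, 690 and 25 counts (control to marrow 32.0, 21.9 to 50.7) and Gbp2 4656, 3269 and 350 (11.0, 9.88 to 12.4). Irf1, a factor that drives Cxcl9 and Cxcl10, had 5726, 8597 and 2041 counts (4.97, 4.74 to 5.22). Between the tumour libraries none of the 10 was called (median 0.01): Gbp5 had a ratio of alisertib to control of 1.61 (1.47 to 1.77), while Irf1 was 1.60-fold lower and Irf9 1.68-fold lower with alisertib.

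Regulators of chemokine RNA decay were measured because ELR chemokine transcripts are short-lived. Of 7, the control MDSCs had 3 called higher than marrow (median log2 ratio of the list 0.76): Zfp36l1 at 34.9 (30.2 to 40.7), Zc3h12a, a ribonuclease, at 4.42 (4.21 to 4.65) and Zfp36l2 at 2.22 (2.17 to 2.27). With alisertib, Zfp36l1 (17.8, 15.4 to 20.8) and Zc3h12a (2.83, 2.69 to 2.98) were called (list median 0.46). The share of all genes called higher than marrow was 18.3% in the control and 18.7% with alisertib, and the alisertib count is near it. None was called between the tumour libraries, where Zfp36l1 was 2.0-fold lower with alisertib. Zfp36, which encodes tristetraprolin, had ratios to marrow of 1.69 in the control and 1.38 with alisertib, and Khsrp, a further decay factor, was 1.77-fold and 1.91-fold lower; neither was called.

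Proteases that cut chemokines went mostly the other way. Of 8, 6 were called lower and 1 higher in control MDSCs than in marrow, and 7 and 1 with alisertib (median log2 ratios -2.78 and -2.08). Of all genes, 22.9% were called lower in the control and 22.3% with alisertib. Elane and Ctsg passed the filter only through marrow (31.9 and 14.3 CPM) and could thus hardly be called higher. Mmp8, a neutrophil collagenase, had 3086, 8808 and 85745 counts, and was 8.24-fold lower in the control than in marrow and 3.03-fold lower with alisertib than in the control, a called difference. Mmp9 had 29283, 22207 and 112586 counts (4.29-fold lower in the control than in marrow). The granule protease Elane had 6, 5 and 736 counts. Adam17, a shedding protease of membrane proteins, was the member called higher, at 3.06 (2.93 to 3.20) in the control, and Adam10, the main sheddase of Cxcl16, was 1.84-fold lower there. Mmp8 and Elane are granule genes of maturing neutrophils, and the summed neutrophil markers given above were lower in the tumour libraries too, and lowest with alisertib. That sum was carried in marrow mostly by S100a9, Ngp, Ltf and S100a8. The part of such cells in the protease values was not tested. Between the tumour libraries, 4 of the 8 proteases had ratios of alisertib to control above 1, among them Mmp9 at 1.24 (1.22 to 1.26).

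Of the 6 receptors past the filter, 2 were called higher and 1 lower than marrow in each tumour library, with median log2 ratios of 1.10 in the control and 0.98 with alisertib, and none was called between the tumour libraries (median -0.28). The 1 lower of 6 is not above the 22.9% and 22.3% of all genes called lower. The 2 higher of 6 stand beside 18.3% and 18.7% of all genes called higher. Cxcr2, the main receptor of Cxcl1, Cxcl2, Cxcl3 and Cxcl5, had 5298 counts with alisertib, 7913 in the control and 21834 in bone marrow (81.3, 129 and 307 FPKM). Its order over the libraries was the reverse of that of Cxcl1 and Cxcl2, while Cxcl3 and Cxcl5 had no order between the tumour libraries that their values could separate. It was called 2.34-fold lower in the control than in marrow and 3.71-fold lower with alisertib than in marrow. With alisertib it was 1.59-fold lower than in the control (ratio 0.630, 0.608 to 0.652), which was not called. Cxcr1 ran the other way, with 473, 411 and 123 counts and a ratio of control to marrow of 3.94 (3.22 to 4.87).

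Cxcr4, the receptor of Cxcl12, had 7617, 6403 and 13638 counts and was not called in any comparison (1.8-fold lower in the control than in marrow). Cxcr3, the receptor of Cxcl9 and Cxcl10, was low in all libraries, with 66, 43 and 43 counts. Cxcr6, the receptor of Cxcl16, had 21, 34 and 10 counts. Both are known mainly from lymphocytes. Cxcr5, known from B cells, had 242, 373 and 38 counts and was called higher in the control than in marrow at 11.5 (8.29 to 16.6). The summed B cell markers were at 40.1, 5.43 and 203 CPM in the same order of libraries, and their part in the Cxcr5 values was not tested. Ackr3, a scavenger receptor of Cxcl12, had 17, 22 and 2 implied reads, and Ackr1, a decoy receptor of red cells and venules, had 0 counts in every library, under the floors of 0.145, 0.154 and 0.130 CPM that 3 counts stand for. Cxcl13 and Cxcl17 are not analysed here.

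**Figure D5:**
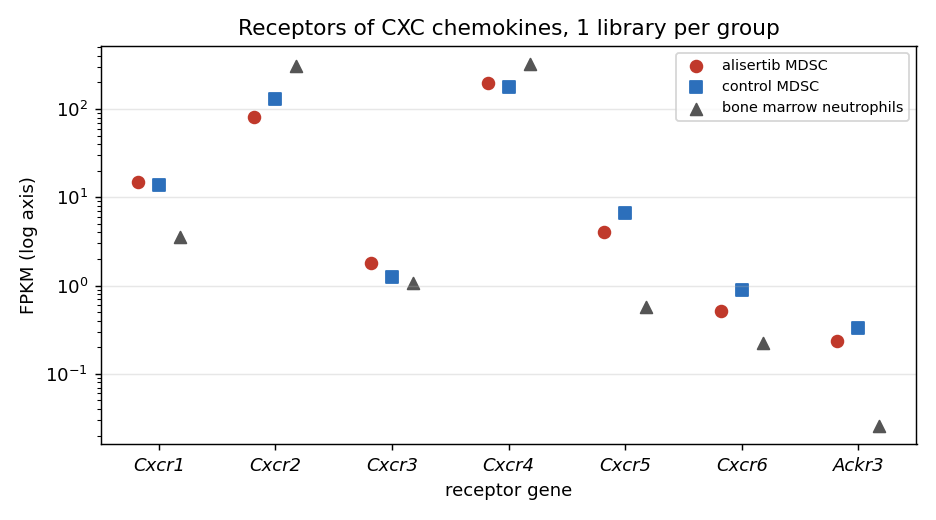
Deposited FPKM (log y axis) of the receptors of CXC chemokines (x axis), with 1 point for each library (circles alisertib MDSC, squares control MDSC, triangles bone marrow neutrophils). Cxcr2 stands at 81.3, 129 and 307 FPKM in the same order, the reverse of the order of Cxcl2. Cxcr1, Cxcr3, Cxcr5, Cxcr6 and Ackr3 are lowest in bone marrow.

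The genes nearest to each member in pattern over the 3 libraries were sought among 7378 genes with at least 10 CPM in a library, by the distance between centred log2 CPM values. With 3 points, many genes fit closely, and nothing is read from their likeness. The nearest were Mreg (0.06) and Hic1 (0.11) for Cxcl1, Hic1 (0.02) and Slc39a14 (0.03) for Cxcl2, and Oas1a (0.11) and Areg (0.20) for Cxcl3. For Cxcl9 they were Nop14 (0.04) and Nr4a2 (0.10), for Cxcl10 Eml1 (0.07) and Rrad (0.17), and for Cxcl16 Sh2b2 (0.02) and Adm (0.04). Hic1, near both Cxcl1 and Cxcl2, had 307, 250 and 7 counts. Oas1a, an interferon-induced gene, had 813, 798 and 1 counts, and Areg, a growth factor gene, 272, 290 and 0.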

How the data were processed

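RNA-seq of 3 libraries was used, 1 for each of 3 groups of sorted mouse cells. The authors deposited raw counts per gene and FPKM values per gene; per the submitters' processing notes, CASAVA 1.8, STAR 2.5.1b and the builds mm9 and mm10 are named, with no role. Per the labels' protocols, cells were sorted on a FACSAria to a purity above 90%, Trizol was used for RNA extraction, and NEBNext Ultra for the libraries. For the counting tool, annotation and strand setting, a statement was not given in the sources used here.

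Counts were scaled with TMM factors (edgeR 4.0.16, R 4.3.3). Ratios were taken after adding 0.5 to each count, with exact Clopper-Pearson 95% intervals of the share of the summed count (scipy 1.17.1). They cover counting error only, and reads that carry no molecular identifier are not independent molecules. The implied library sizes behind FPKM are 21374376, 20054125 and 23323763 for alisertib, control and marrow, and within 0.05 reads they gave the deposited count for 77.8% of 18769 genes in both tables. The script was tested on simulated counts. Symbols and positions come from GENCODE M21 (GRCm38), which may not be the authors' build. Members and lists were chosen with earlier results of these data known. Named are all members, up to 5 called (otherwise the most abundant) genes per list and comparison, every CXC receptor and other ligand with at least 1 CPM, the 2 nearest genes by pattern, genes next to a member and markers; Ppbp, Ackr1, Cxcl11 and a few list genes that were not called were named after their values were seen. Alternatives were other scalings (DESeq2 1.42.0), filters, FPKM, another added count and another call rule.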

Additional observations from a re-analysis of the deposited data

How the results depend on the processing

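Between the tumour libraries 0 of the 6 genes were called higher, but 1 was under total counts (Cxcl10), 1 with FPKM plus 0.1 (Cxcl10) and 2 when the ratio itself had to reach 2-fold (Cxcl9 and Cxcl10). No p-value was computed. The counts of members called against bone marrow stayed within 1.5 times the reported ones under every alternative, and no called member reversed. Cxcl9 was not measured under the filter of 10 CPM. Counts of all genes moved more: with alisertib over control, 234 higher and 154 lower became 431 and 82 under total counts, 1006 and 631 by the ratio itself and 607 and 452 with FPKM plus 0.1, and the 234 became 66 with the 10 CPM filter and 85 with FPKM plus 1. With that filter, control over marrow went from 2386 higher and 2985 lower to 1564 and 1956, and alisertib over marrow from 2436 higher to 1482. Of the genes called, 44.4% (control) and 45.6% (alisertib) were higher than marrow, and 55.7% and 56.9% with upper-quartile factors, which moved the median log2 ratio by 0.28. The median log2 ratio of alisertib to control turned from 0.01 to -0.05 for interferon regulators with DESeq2 size factors, and from -0.06 to 0.21 for proteases under total counts. The shares per spliced transcript, the marker sums without Cd3d or Vwf, the reads implied by FPKM and TMM factors without Cxcl2 and Cxcl3 were chosen after seeing the data. With implied reads, 6 and 7 of 7 members were called higher in control and alisertib MDSCs than in marrow, against 18.9% and 19.4% of 13175 genes. Cxcl14, listed at 0 in marrow, passed the filter there through the tumour libraries alone. Depth limits Cxcl5, Cxcl9 and Cxcl12, at under 30 reads in every library. No paired analysis was possible because each group has 1 library.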
